A study of Homo sapiens with 6 samples.

Results

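The genes described here are 31 genes chosen by name as targets of the transcription factor NRF2 (gene NFE2L2), together with NRF2 itself, its partners KEAP1 and MAFG, and members of the aldo-keto reductase (AKR) family. On the array 30 of the 31 had a named transcript record, out of 17185 named genes in all, 28 through the platform's own annotation and 2 (FTH1 and AKR1B1) through the RefSeq accession of the record. OSGIN1 was not analysed here because no record carried its name. Where a gene had more than 1 record, as GSTM4, PRDX1 and PIR did, the record with the highest mean over all arrays stood for it.

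The cells were MDA-MB-231, a widely used line from a human breast cancer that lacks the hormone receptors and is of mesenchymal type. The control group was kept in DMEM without the drug and the other group received 3.75 μM DCC-2036, both for 48 h, with 3 arrays per group from experiments described as independent. DCC-2036, or rebastinib, inhibits the kinase ABL1 and further kinases, among them TEK and SRC-family members. A single line, dose and time were used, and a vehicle in the control cultures is not given in the sources used here. Total RNA was labelled through oligo dT primed cDNA and hybridized to one-colour NimbleGen arrays.

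NRF2 is held in the cytoplasm by KEAP1, which presents it to a CUL3 ubiquitin ligase for degradation. When oxidants or electrophiles modify KEAP1, NRF2 accumulates, pairs with small MAF proteins such as MAFG and binds antioxidant response elements in its targets. These targets make glutathione, run the thioredoxin system, regenerate NADPH, break down haem and store iron, and reduce reactive carbonyls, the last being the work of the AKR enzymes. BACH1, a haem-sensing repressor, occupies the same elements, with HMOX1 as its best known target.

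Proximal promoters of members were read in the RefSeq promoter table (GRCh38.p14), in windows from 250 bases before to 50 bases after each listed transcription start. The table held 32 windows for 25 of the 31 genes. The core of the antioxidant response element, TGACNNNGC on either strand, with GCNNNGTCA as its opposite-strand form, was present in 8 of these 32 windows and in 13.3% of all 35116 windows of the table. Its letters overlapped the AP-1 motif TGANTCA in 4.20% of the windows that held it, and among members in PIR. Of members with a window, the core was present in 1 of 5 that were higher with DCC-2036 (EPHX1), in 1 of 2 that were lower (TXNRD1) and in 5 of 17 that did not pass. A gene counts here if any of its windows held the core, so the 13.3% of windows is no like background. A match describes letters and is no evidence of binding. Not all members holding the core are shown, nor is a further match in the window of TXNRD1 start 1, from base -8. The following stretches, 5′ to 3′ on the gene's strand, are from EPHX1, which rose, TXNRD1, which fell, and GCLM, which did not pass. Capitals mark the core. They lie at chr1:93909431-93909489 (minus strand, GCLM), chr12:104215655-104215713 and chr12:104286905-104286963 (plus strand, the starts 1 and 2 of TXNRD1 in the table) and chr1:225825251-225825309 (plus strand, start 2 of EPHX1).
GCLM: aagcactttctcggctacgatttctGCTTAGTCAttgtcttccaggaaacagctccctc
TXNRD1 start 1: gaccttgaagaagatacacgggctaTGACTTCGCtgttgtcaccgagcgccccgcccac
TXNRD1 start 2: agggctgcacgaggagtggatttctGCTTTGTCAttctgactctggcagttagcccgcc
EPHX1 start 2: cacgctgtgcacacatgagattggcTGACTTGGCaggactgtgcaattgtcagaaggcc

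The AKR1C genes lie in a cluster on chromosome 10, and their promoters are shown because AKR1C2 and AKR1C3 rose and AKR1C1 lay above control on every treated array. Over the 250 bases before the start, AKR1C2 matched AKR1C1 at 96.5% of aligned positions, and the pair of AKR1C3 windows matched it at 72.4% and 69.9%. The 120 bases before each start are printed, with capitals for the longest run shared with AKR1C1 (in AKR1C1, with AKR1C2), which was 115 bases in AKR1C2 and 12 and 19 bases in the starts 1 and 2 of AKR1C3. They lie at chr10:4963295-4963414 (plus strand, AKR1C1), chr10:5003858-5003977 (minus strand, AKR1C2), chr10:5048661-5048780 and chr10:5094294-5094413 (plus strand, AKR1C3). None of these windows held the core, which says only that its letters are not in them.
AKR1C1: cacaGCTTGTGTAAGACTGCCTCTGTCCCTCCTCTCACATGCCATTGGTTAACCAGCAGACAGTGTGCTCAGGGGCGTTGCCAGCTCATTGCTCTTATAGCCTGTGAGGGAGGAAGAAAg
AKR1C2: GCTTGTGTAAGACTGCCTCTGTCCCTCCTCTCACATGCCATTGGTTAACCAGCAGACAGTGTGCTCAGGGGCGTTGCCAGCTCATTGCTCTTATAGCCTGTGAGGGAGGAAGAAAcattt
AKR1C3 start 1: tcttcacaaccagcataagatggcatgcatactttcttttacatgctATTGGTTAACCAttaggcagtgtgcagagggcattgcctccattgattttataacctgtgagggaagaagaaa
AKR1C3 start 2: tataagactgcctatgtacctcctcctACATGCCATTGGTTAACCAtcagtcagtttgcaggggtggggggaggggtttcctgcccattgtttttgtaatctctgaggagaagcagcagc

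Values are intensities on a linear scale, as the authors normalized them with RMA. The highest array median was 274, and the number of arrays limits the precision. The mesenchymal markers VIM, LGALS1 and S100A4 lay between 10620 and 25339 on the 6 arrays and CD44 between 846 and 2323. There were 6 markers of luminal or receptor-positive breast cells. PGR, FOXA1 and CDH1 lay between 12.9 and 52.3, under the limit of the dimmest 25% of records (74.1), and ESR1 between 14.3 and 156. GATA3, between 302 and 579, and ERBB2, between 1618 and 2102, were above that limit on all arrays. The leukocyte and endothelial markers PTPRC, CD3E, PECAM1 and CDH5 ranged from 14.2 to 86.9, the fibroblast marker PDGFRB from 151 to 268, and the fibroblast marker DCN reached 492 on DCC-2036 replicate 3 against 41.7 to 106 on the others. Their part in the results was not tested.

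The members did not move as a body. HMOX1, SLC48A1, AKR1C2, AKR1C3, EPHX1, GSR and TXN rose with DCC-2036, TXNRD1 and BLVRB fell, and the other 21 measured members did not pass. In the limma test with p-values adjusted by Benjamini-Hochberg over the 17185 genes and called at 0.05, 9 of 30 members therefore passed, while 29.1% of all genes did, so the count of members is close to the background. By direction, 7 members were higher, against 13.1% of all genes, and 2 were lower, against 16%. The median log2 change of the members was 0.13, and that of all genes 0.02. The groups did not overlap in 16 members, against 46.5% of all genes. Every treated array lay above every control array in 10 of them (22.2% of all genes) and below in 6 (24.3%). Without control replicate 1, genes called over the whole array fell from 2257 to 1421 higher and from 2745 to 1721 lower, and without DCC-2036 replicate 2 those called higher numbered 1463. Since RNA came from whole cultures, a change in some cells and a change in all cells cannot be told apart.

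**Figure D1:**
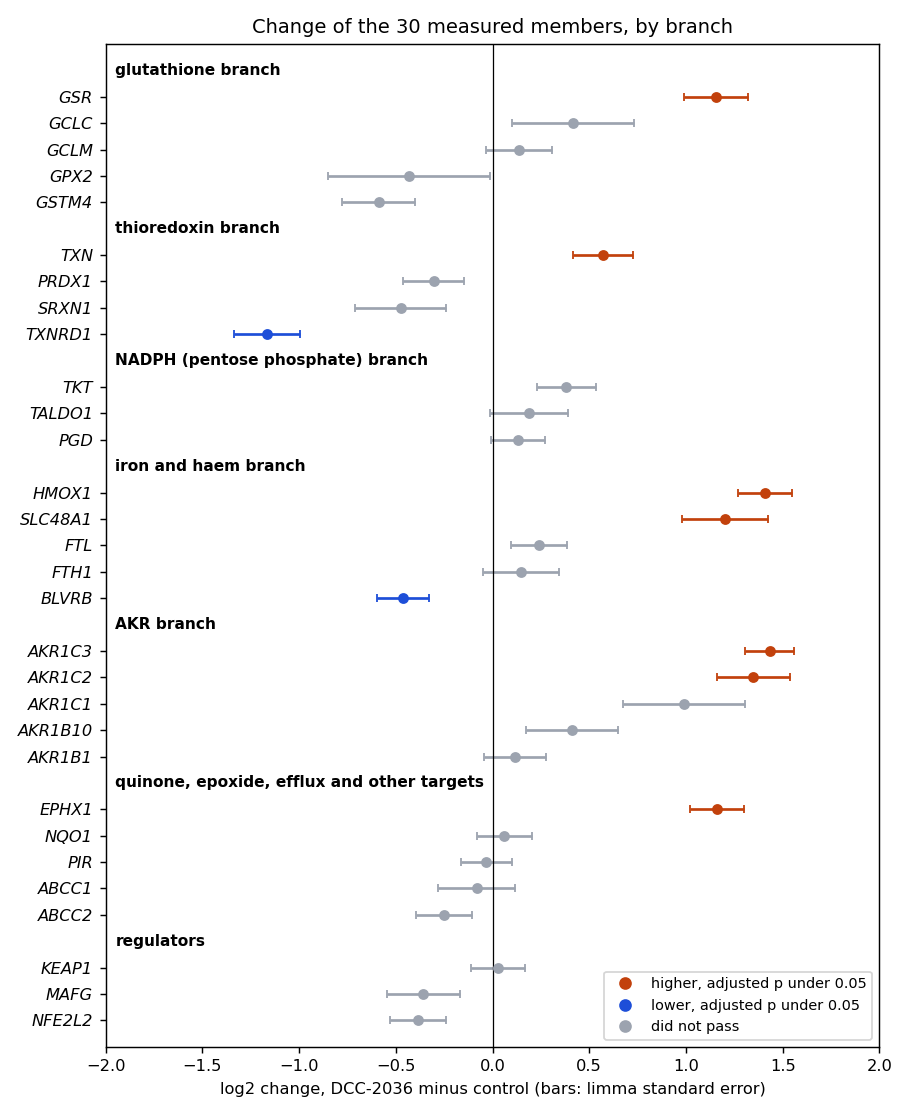
Log2 change of each of the 30 measured members (horizontal axis, DCC-2036 minus control, with the limma standard error as bars), ordered by size within 7 branches. Members that rose are orange, those that fell are blue and those that did not pass are grey; HMOX1 and AKR1C3 lie farthest to the right and TXNRD1 farthest to the left.

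In the iron and haem branch HMOX1 and SLC48A1 rose, BLVRB fell, and the ferritin genes FTL and FTH1 did not pass, which makes 3 of 5 members called, beside 29.1% of all genes. HMOX1, haem oxygenase 1, which opens haem and releases its iron, read 1159, 1377 and 1195 on control replicates 1, 2 and 3 and 3350, 3359 and 3172 on DCC-2036 replicates 1, 2 and 3. The treated arrays lay close to each other and far above all control arrays. This was a 2.65-fold rise, a log2 change of 1.41 ± 0.14 (limma standard error; adjusted p = 0.00168). SLC48A1, the transporter HRG1 that carries haem out of lysosomes, read 498, 409 and 291 in control and 976, 856 and 865 with the drug. Its lowest treated array was still above its highest control array, and the change was 1.20 ± 0.22 (2.30-fold, limma adjusted p = 0.0106).

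BLVRB, biliverdin reductase B, read 6774, 6696 and 6431 in control against 4485, 4852 and 5123 with DCC-2036. The groups did not overlap, and the fall was 1.38-fold (-0.46 ± 0.13, limma adjusted p = 0.0442). The call was lost when any 1 of the 6 arrays was left out (log2 changes between -0.51 and -0.41), and under quantile normalization applied again (-0.42) or median centring (-0.38). FTL and FTH1 are the light and heavy chains of ferritin, the iron store. FTL had 19723 ± 1189 in control and 23333 ± 2119 (mean ± SD, n = 3) with the drug, the treated arrays all above the control arrays, and did not pass (0.24 ± 0.14, limma adjusted p = 0.262). FTH1 spread widely in the control group, with 33482, 29220 and 21580, and the treated arrays at 28623, 31403 and 31863 lay within that range (0.15 ± 0.20).

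**Figure D2:**
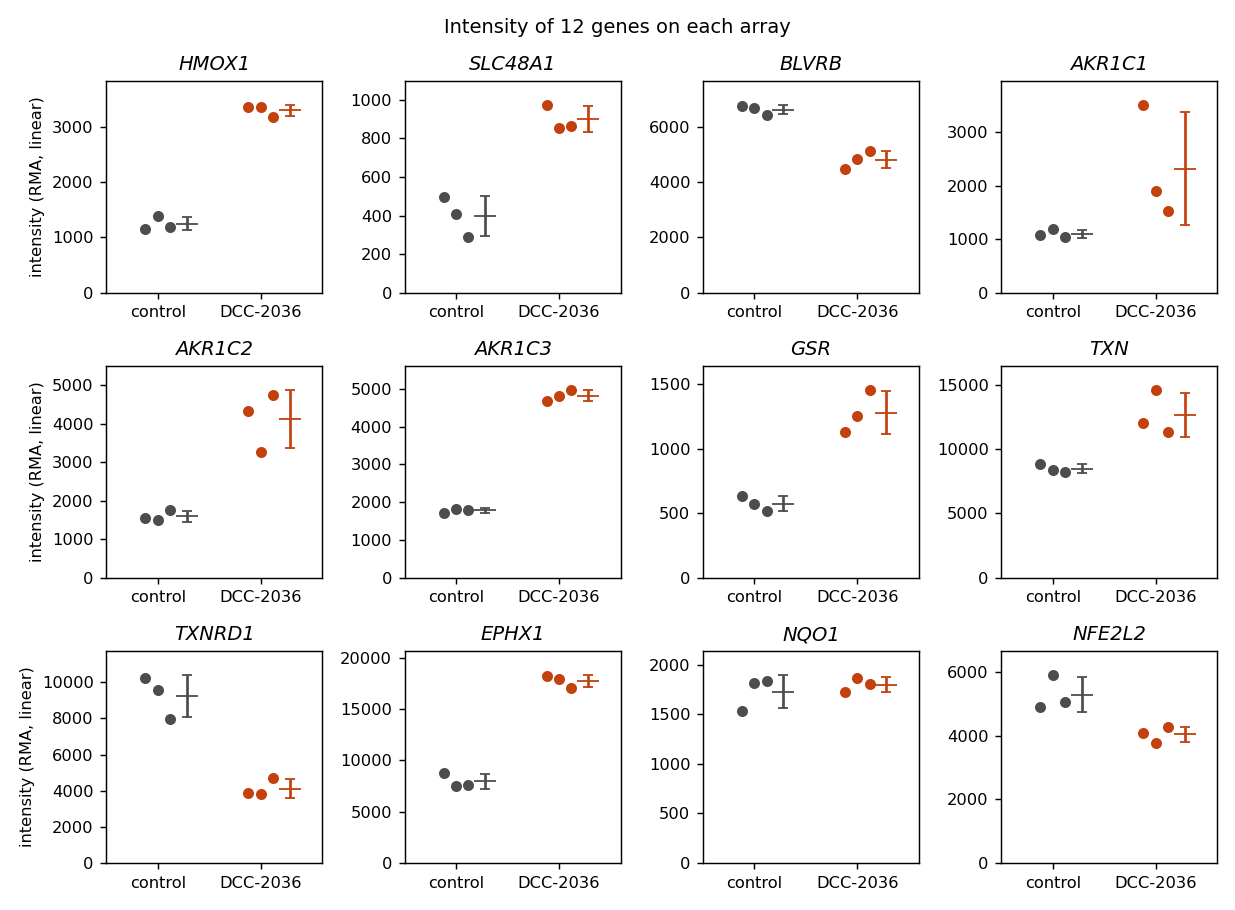
Intensity (vertical axis, linear RMA values from 0) of 12 genes on each of the 3 control (grey) and 3 DCC-2036 (orange) arrays, with the mean and SD beside the points. The groups are well apart for HMOX1, AKR1C3 and EPHX1, AKR1C1 has 1 treated array at 3513 far above the others, and NQO1 overlaps between groups.

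In the AKR branch AKR1C2 and AKR1C3 rose, AKR1C1 narrowly did not pass, and AKR1B1 and AKR1B10 did not pass. That made 2 higher and 0 lower of 5, where 13.1% of all genes were higher and 16% lower. AKR1C3, which reduces prostaglandin D2 and converts androstenedione to testosterone, read 1718, 1830 and 1805 in control and 4672, 4798 and 4975 with DCC-2036. Both groups were narrow, and the rise was 2.70-fold (1.43 ± 0.13, limma adjusted p = 0.00131), the largest among the 30 members. AKR1C2, which inactivates dihydrotestosterone, read 1544, 1497 and 1767 in control and 4341, 3274 and 4750 with the drug. All treated arrays were well above control, with DCC-2036 replicate 2 the lowest of them (1.35 ± 0.19, 2.55-fold, limma adjusted p = 0.00424).

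AKR1C1, which inactivates progesterone, read 1068, 1187 and 1032 in control and 3513, 1905 and 1534 with the drug. The treated arrays were all above control but differed more than 2-fold among themselves, and the change of 0.99 ± 0.31 did not pass (limma adjusted p = 0.0582). It passed without DCC-2036 replicate 3 (1.24), with a log offset of 16 rather than 1 (0.98), under quantile normalization applied again (1.07) or median centring (1.07), without the dimmest 25% of records (0.0372 as adjusted p) and with eBayes in its trend and robust settings (0.0115 as adjusted p). Without its high array, DCC-2036 replicate 1, the change was 0.64 and the adjusted p 0.0543. The AKR1C genes are close paralogues, and whether their records share signal was not tested.

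AKR1B1, aldose reductase, which turns glucose into sorbitol, read 46986, 43022 and 46157 in control and 57706, 43898 and 47008 with DCC-2036. DCC-2036 replicate 1 stood well above the control range, replicate 3 barely above it and replicate 2 within it (0.12 ± 0.16, limma adjusted p = 0.624, 95% interval -0.27 to 0.50). AKR1B1 lay near the highest intensity of any record, 65365, and whether this compressed its change was not tested. AKR1B10, a reductase of retinal and reactive carbonyls that many NRF2-active tumours express, had 546 ± 106 in control and 728 ± 166 with the drug, with overlapping groups (0.41 ± 0.24, limma adjusted p = 0.249). The intervals of the log2 change were 1.12 to 1.74 for AKR1C3 and 0.90 to 1.80 for AKR1C2, above that of AKR1B1, while that of AKR1B10, -0.17 to 0.99, overlapped the interval of AKR1C2.

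The glutathione branch held 1 gene that rose, glutathione reductase, which makes 1 of 5 members called, beside 29.1% of all genes. GSR, which regenerates reduced glutathione with NADPH, read 633, 572 and 516 in control and 1132, 1253 and 1459 with DCC-2036. The lowest treated array was far above the highest control array, a rise of 2.23-fold (1.15 ± 0.16, limma adjusted p = 0.00454). The genes of glutathione synthesis did not pass. GCLC, the catalytic subunit of the rate-limiting ligase, read 190, 364 and 171 in control and 279, 273 and 369 with the drug, with control replicate 2 as high as the treated arrays (0.41 ± 0.32, limma adjusted p = 0.373). GCLM, the modifier subunit, had 947 ± 166 and 1033 ± 66.5, and control replicate 1 was its highest array (0.14 ± 0.17, 95% interval -0.28 to 0.55). GPX2, a selenium-dependent peroxidase of epithelia, was dim on all arrays, at 29.4 to 61.3 in control and 18.4 to 44.5 with the drug, and did not pass.

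GSTM4, a glutathione transferase of the mu class, had records that moved apart. Its brighter record (NM_000850) read 7057, 6447 and 5720 in control and 5071, 3491 and 4321 with DCC-2036, all treated arrays below control (-0.59 ± 0.19, limma adjusted p = 0.0607). Its other record (NM_147148) read 1094, 966 and 1050 in control and 1652, 1653 and 1975 with the drug, all treated arrays above control. In the fit of all 45033 records the second record rose 1.69-fold (0.76 ± 0.15, limma adjusted p = 0.0145) and the brighter one did not pass (limma adjusted p = 0.0671). Without DCC-2036 replicate 1 the brighter record was called lower (-0.72), as it was with 16 added before the log (-0.59), without the dimmest 25% of records (adjusted p = 0.0363) or with trend and robust settings (adjusted p = 0.00919). The mean of both records changed by 0.09. Mu-class genes sit side by side and are similar in sequence: GSTM1 fell 1.50-fold (-0.58 ± 0.13, limma adjusted p = 0.0211) and GSTM3 3.20-fold (-1.68 ± 0.24, limma adjusted p = 0.00478), and GSTM2 did not pass (-0.35). GSTM1 no longer passed when control replicates 1 or 3 or DCC-2036 replicates 1 or 2 were removed. Its second record changed by -0.35.

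**Figure D3:**
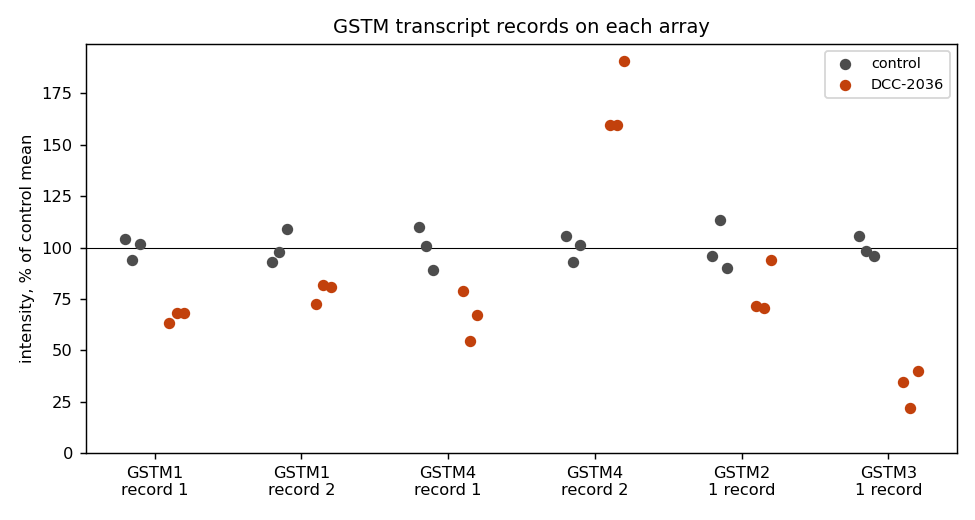
Intensity of 6 transcript records of 4 mu-class glutathione transferase genes on each array, as a percentage of the record's control mean (vertical axis); grey points are control and orange points DCC-2036. Record 2 of GSTM4 lies at 159% to 190.5% on the treated arrays and record 1 at 54.5% to 79.1%.

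The thioredoxin branch changed in both directions. TXN, thioredoxin itself, rose, while TXNRD1, the NADPH-dependent reductase that recharges it, fell. SRXN1 and PRDX1 did not pass, giving 1 higher and 1 lower of 4, beside 13.1% and 16% of all genes. TXNRD1 read 10216, 9590 and 7967 in control and 3849, 3796 and 4711 with DCC-2036. Every treated array lay well below every control array, a 2.25-fold fall (-1.17 ± 0.17, limma adjusted p = 0.00488), whereas GSR, its counterpart in the glutathione system, rose. TXN read 8866, 8403 and 8186 in control and 12021, 14622 and 11321 with the drug. The groups were apart, with DCC-2036 replicate 2 the highest (1.48-fold, 0.57 ± 0.16, limma adjusted p = 0.0369). Its call was lost when any 1 of the 6 arrays was left out, with changes between 0.46 and 0.64.

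SRXN1, sulfiredoxin, which restores overoxidized peroxiredoxins, read 1857, 2024 and 2115 in control and 1853, 1535 and 1039 with DCC-2036. DCC-2036 replicate 1 came within 4 units of the lowest control array and the other treated arrays were lower, and the change did not pass (-0.48 ± 0.24, limma adjusted p = 0.184). PRDX1, a peroxidase of hydrogen peroxide, had 6990 ± 621 in control and 5665 ± 640 with the drug, overlapping at 1 treated array (-0.31 ± 0.16, limma adjusted p = 0.197), and its second record changed by -0.07.

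The NADPH branch, enzymes of the pentose phosphate pathway, held no call: 0 of 3 were higher and 0 lower in the limma test. Of all genes 13.1% were higher and 16% lower in that test. At an unadjusted p under 0.05, for which no share of all genes was taken, 1 was higher and 0 lower. With trend and robust settings, where 2654 of all 17185 genes were higher, 1 was higher. That gene was TKT, transketolase, with 14976, 15804 and 19392 in control and 21667, 21550 and 21729 with DCC-2036. The treated arrays were nearly equal and all above control (0.38 ± 0.15, limma adjusted p = 0.114). PGD, which makes NADPH from 6-phosphogluconate, changed by 0.13 ± 0.14 and TALDO1, transaldolase, by 0.19 ± 0.20, both with overlapping groups. Their 95% intervals, -0.21 to 0.47 and -0.30 to 0.67, leave out a doubling.

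Among the targets outside these branches EPHX1 rose, and NQO1, ABCC1, ABCC2 and PIR did not pass. That made 1 of 5 measured members called, beside 29.1% of all genes. EPHX1, microsomal epoxide hydrolase, which opens epoxides to diols, read 8795, 7522 and 7593 in control and 18206, 17984 and 17102 with DCC-2036. The treated arrays were all far above control (2.23-fold, 1.16 ± 0.14, limma adjusted p = 0.00282). NQO1, the quinone reductase often used as the index gene of NRF2, read 1534, 1819 and 1834 in control and 1724, 1868 and 1807 with the drug. The groups overlapped, and the log2 change was 0.06 ± 0.14, with a 95% interval of -0.29 to 0.41. ABCC1, an exporter of glutathione conjugates, changed by -0.08 ± 0.20, and PIR, the iron-binding nuclear protein pirin, by -0.03 ± 0.13 (second record 0.06). ABCC2, an apical conjugate exporter, was lower on every treated array, with 131 ± 10.4 in control and 110.0 ± 8.97 with the drug, and did not pass (-0.25 ± 0.15, limma adjusted p = 0.244).

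The regulators held no call, with 0 of 3 higher and 0 lower in the limma test, beside 13.1% and 16% of all genes. At an unadjusted p under 0.05, for which no share of all genes was taken, 1 was lower. With trend and robust settings, where 3188 of all 17185 genes were lower, 1 was lower. That gene was NFE2L2, the mRNA of NRF2 itself, which read 4906, 5921 and 5069 in control and 4085, 3789 and 4272 with DCC-2036. All treated arrays lay below all control arrays, and the change was -0.38 ± 0.15 (limma adjusted p = 0.0986). KEAP1 had 3040 ± 112 in control and 3107 ± 285 with the drug (0.03 ± 0.14, 95% interval -0.31 to 0.37). MAFG had 2631 ± 321 and 2062 ± 343, with 1 treated array inside the control range (-0.36 ± 0.19, limma adjusted p = 0.209). NRF2 is controlled mainly through protein stability, which these mRNA values do not measure.

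Side by side, the branches differed in their mean level per array, taken as the mean over a branch of log2(intensity + 1) minus each gene's control mean. On DCC-2036 replicates 1, 2 and 3 the AKR branch stood at 1.05, 0.79 and 0.73 and the iron and haem branch at 0.47, 0.54 and 0.51. The thioredoxin branch stood at -0.31, -0.32 and -0.40 on the same arrays and the NADPH branch at 0.23, 0.17 and 0.30. The glutathione branch stood at -0.05, 0.13 and 0.33 on the same arrays, against -0.29 to 0.15 on its control arrays. Only DCC-2036 replicate 3 lay above that control range. On DCC-2036 replicates 1, 2 and 3 the other targets stood at 0.14, 0.13 and 0.24 and the regulators at -0.38, -0.21 and -0.13. The last of these was close to the regulators on control replicate 1, at -0.12. These levels describe the branches as chosen, and the difference between branches was not tested. The median log2 change was 0.99 in the AKR branch, 0.24 in the iron and haem branch and 0.19 in the NADPH branch. It was 0.14 in the glutathione branch, -0.39 in the thioredoxin branch, -0.03 in the other targets and -0.36 in the regulators. Over all genes it was 0.02. The AKR median is the value of AKR1C1, which did not pass, while AKR1B1 and AKR1B10 changed by 0.12 and 0.41. The AKR level came mostly from AKR1C1, AKR1C2 and AKR1C3, paralogues whose shared signal was not tested. On DCC-2036 replicate 1 the highest of them was AKR1C1, at 1.68.

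**Figure D4:**
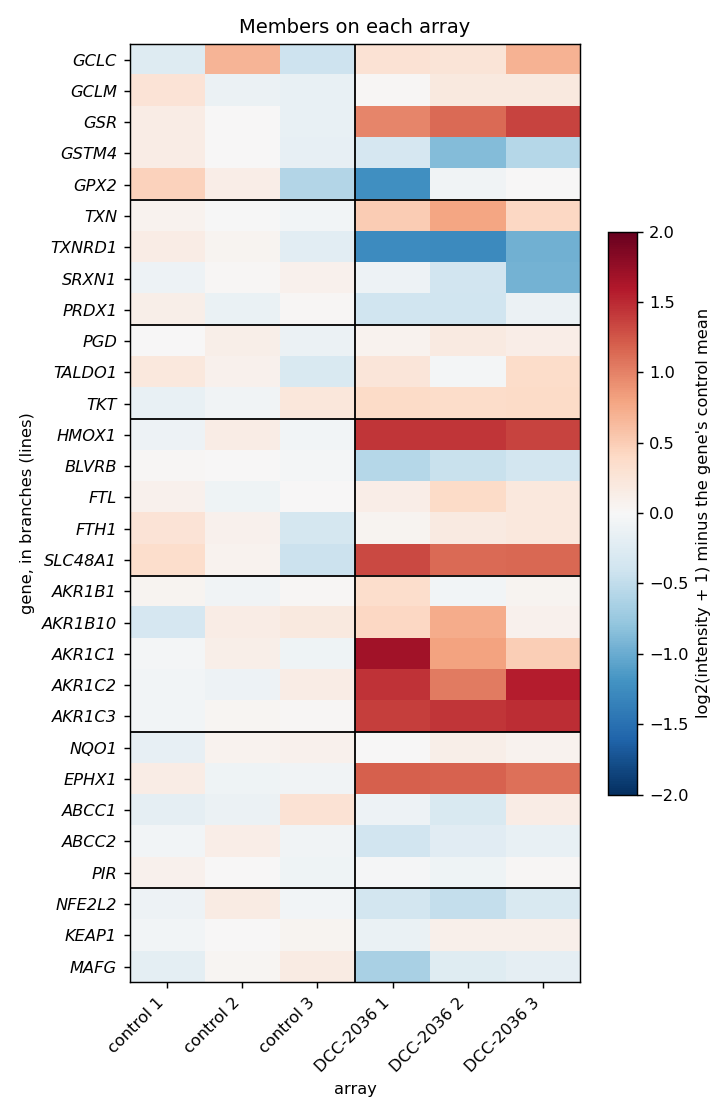
Each member (rows, grouped by branch with black lines) on each array (columns, 3 control then 3 DCC-2036), coloured by log2(intensity + 1) minus the gene's control mean. The rows of HMOX1, SLC48A1, AKR1C2, AKR1C3, EPHX1 and GSR are red on all 3 treated arrays, and TXNRD1 is blue on all 3.

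Further genes of the pathway that are not among the 31 were read from the same fit, 69 of 74 listed having a record. Of the 69, 11 rose, 17 fell and 41 did not pass, with a median log2 change of -0.04, where over all genes 13.1% rose and 16% fell. Leaving out control replicates 1, 2 and 3 brought the higher calls to 5, 5 and 6, and leaving out DCC-2036 replicates 2 and 3 brought them to 5 and 4. Leaving out control replicates 1 and 2 brought the lower calls to 9 and 10. Of the 28 called genes, 12 kept their call without each array in turn: BACH1, MAFF, NFE2L3, BTRC, GSTM3, RPE, TFRC, SLC40A1, ACO1, AKR1C4, ALDH3A1 and ABCC3.

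Of 12 other regulators around NRF2, 4 fell, 1 rose and 7 did not pass, where over all genes 16% fell and 13.1% rose. BACH1, the repressor that shares NRF2's elements, read 735, 653 and 661 in control and 179, 210 and 217 with DCC-2036. The groups were far apart, a 3.38-fold fall (-1.76 ± 0.15, limma adjusted p = 0.00115). MAFF, a small MAF protein, read 4537, 4165 and 4286 in control and 642, 1186 and 1222 with the drug. It fell 4.43-fold (-2.15 ± 0.27, limma adjusted p = 0.00326). NFE2L3, a relative of NRF2, fell 2.47-fold (-1.31 ± 0.14) and BTRC, the F-box protein that marks NRF2 for degradation independently of KEAP1, rose 1.65-fold (0.72 ± 0.14). The remaining lower gene was SQSTM1, the autophagy receptor p62 that binds KEAP1 (-1.34), whose call was lost without control replicate 1.

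Of 12 other iron and haem genes, 3 rose, 4 fell and 5 did not pass, where over all genes 13.1% rose and 16% fell. SLC40A1, the iron exporter ferroportin, read 78.3, 63.7 and 26.7 in control and 288, 189 and 390 with DCC-2036. Of its control arrays 2 lay under 74.1, and it rose 5.33-fold (2.41 ± 0.46, limma adjusted p = 0.0112). TFRC, the transferrin receptor that brings iron in, fell 1.87-fold (2275 ± 180.5 to 1217 ± 138, limma adjusted p = 0.00800). ACO1, the iron-regulatory protein IRP1, fell 2.09-fold (5381 ± 311 to 2572 ± 166, limma adjusted p = 0.00346). HMOX2, the constitutive haem oxygenase, rose 1.87-fold (0.90 ± 0.20), a call that needed replicates 2 and 3 of both groups. The other calls were IREB2 and FLVCR1, lower, and STEAP3, higher. The lower genes numbered 2 when control replicates 1 or 2 or DCC-2036 replicates 2 or 3 were removed. The higher genes numbered 1 when control replicates 2 or 3 or DCC-2036 replicates 2 or 3 were removed, and 2 when replicate 1 of either group was.

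Of 5 other aldo-keto reductases measured, 1 rose, 0 fell in the limma test (0 also at an unadjusted p under 0.05) and 4 did not pass. In the limma test 13.1% of all genes rose and 16% fell. AKR1C4, a liver enzyme of bile acid and steroid metabolism, read 1457, 1492 and 1409 in control and 3563, 3641 and 3956 with DCC-2036 (2.56-fold, 1.35 ± 0.13, limma adjusted p = 0.00159). It is a further AKR1C paralogue, to which the same limit applies. AKR1A1, aldehyde reductase, changed by 0.46 ± 0.15 with no overlap between groups (limma adjusted p = 0.0599), while AKR7A2 and AKR7A3 changed by -0.01 and -0.09. AKR1D1 was dim, and a single treated array of 255 stood above the others.

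Among 11 other detoxification and efflux genes, 1 rose, 5 fell and 5 did not pass, where over all genes 13.1% rose and 16% fell. ALDH3A1, an aldehyde dehydrogenase, read 312, 211 and 156 in control and 804, 736 and 850 with DCC-2036 and rose 3.65-fold (1.87 ± 0.26, limma adjusted p = 0.00442). ABCC3, an exporter of glucuronide conjugates, fell 2.65-fold, from 2551 ± 280 to 964 ± 104 (limma adjusted p = 0.00242). CBR1, a carbonyl reductase, and ABCC4, an organic anion exporter, fell 1.50-fold and 1.71-fold, and NQO2 and CBR3 were also lower. With each array left out in turn, CBR1 lost its call 5 times and ABCC4, NQO2 and CBR3 lost theirs 4 times each. Removing control replicates 1, 2 and 3 left 2, 1 and 3 lower calls, and removing DCC-2036 replicates 1, 2 and 3 left 2, 3 and 2. Removing DCC-2036 replicate 1 gave 2 higher calls.

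Of 13 other glutathione genes, 1 rose (GSTA4, 0.51, lost without any 1 of the 6 arrays), 2 fell (GSTM1 and GSTM3) and 10 did not pass. Beside this count and those of the thioredoxin and NADPH genes below, 13.1% of all genes rose and 16% fell. SLC7A11, the cystine transporter that feeds glutathione synthesis, changed by -0.27 ± 0.21 (limma adjusted p = 0.376). Of 9 other thioredoxin genes, PRDX4 (0.71) and PRDX5 (0.73) rose and SESN2 (-0.97) fell. PRDX4 is a peroxiredoxin of the endoplasmic reticulum, and it passed only while all arrays other than control replicate 2 were kept, as PRDX5 did with all but DCC-2036 replicate 2. The call of SESN2, a sestrin, was lost without control replicates 1 or 2. Of 7 other NADPH genes, IDH1, the cytosolic isocitrate dehydrogenase (0.70), and TKTL1, a transketolase relative with a dim signal (1.03), rose, and RPE, ribulose-phosphate epimerase, fell 2.34-fold (-1.23 ± 0.17). IDH1 and TKTL1 both lost the call without control replicates 1 or 2 or DCC-2036 replicates 2 or 3.

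**Figure D5:**
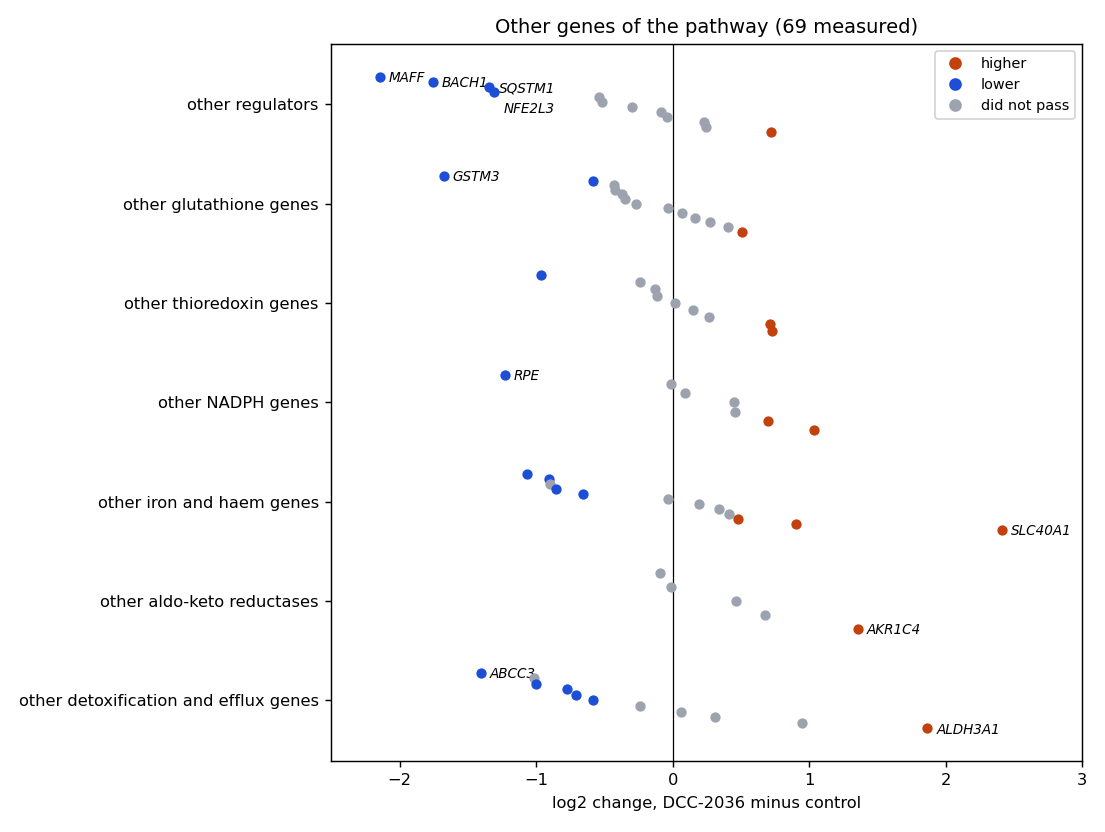
Log2 change (horizontal axis, DCC-2036 minus control) of 69 further pathway genes, 1 point each, in 7 lists; orange points rose, blue points fell and grey points did not pass. SLC40A1 at 2.41 and MAFF at -2.15 are the extremes.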

How the data were processed

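The deposited table holds intensity values of 45033 transcript records on 6 arrays, which the authors made with RMA (version not stated), per the submitters' processing notes. They are on a linear scale (8.03 to 65365), and the sources used here give neither a background method nor the probes per record. Of these records, 18188 were named by the platform annotation, 678 by RefSeq accession and 26167 had no name. Groups (3 arrays each) follow the titles. On log2(intensity + 1), a linear model without covariates in limma 3.58.1 (lmFit, then eBayes; R 4.3.3; two-sided) compared DCC-2036 with control over 17185 genes, with Benjamini-Hochberg adjustment and a threshold of 0.05. Standard errors and 95% intervals are limma's, and no exact permutation p is given, since 3 arrays a group allow none below 0.1.

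The members and lists were chosen with earlier results of these data known, and no list test was made. All 31 members are accounted for. Members called are given on every array, and up to 4 called genes with the smallest p are named from each further list. SQSTM1, GSTM2, SLC7A11, AKR1A1, AKR1D1, AKR7A2, AKR7A3, GPX4, ABCC5 and the remaining called genes were named after their values were seen. In simulated data with 17185 genes and 200 changed, the share of changed genes called was 0.300% at a log2 change of 0.5, 23.9% at 1 and 67.0% at 2, with 5.41% false calls; the real comparison called 5002 genes, so its threshold on unadjusted p was less strict and these shares do not carry over to it. Same-numbered arrays did not deviate together (correlations across genes of -0.08, 0.04 and -0.09), so numbers were not treated as pairs. Alternatives tried were another log offset, 2 normalizations, a filter on dim records, trend and robust settings, a replicate block, other records per gene and each array left out. Python 3.11.15, pandas 2.3.3 and matplotlib 3.10.9 were used for tables and figures.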

Additional observations from a re-analysis of the deposited data

How the results depend on the processing

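Of the 9 members called, GSR, TXNRD1, HMOX1, SLC48A1, AKR1C2, AKR1C3 and EPHX1 kept their direction and call under every alternative run, each array left out included, and TXN and BLVRB did not. The cause of the losses and gains below was not tested, except that fits without an array hold fewer samples. With the replicate block, 1376 genes were higher and 1793 lower, 1 member was lower, 0 thioredoxin members were higher, 0 iron and haem members were lower, and 5 further pathway genes were higher; TXN had an adjusted p of 0.0914 and BLVRB of 0.123, and no other member's call changed. With quantile normalization applied again or median centring, 1 member was lower and 0 iron and haem members were lower. With trend and robust settings 4 members were lower, 1 glutathione member and 1 regulator lower, and 1 NADPH member higher. In that fit 2654 of all 17185 genes were higher and 3188 lower. With 16 added before the log, or without the dimmest 25% of records, 1 glutathione member was lower. With the second brightest record, GSTM4 changed by 0.76 in place of -0.59, and 2 glutathione members were higher. With each array left out in turn, all genes ranged from 1421 to 1886 higher and from 1721 to 2307 lower, members from 6 to 7 higher and from 1 to 2 lower, thioredoxin members higher and iron and haem members lower stayed at 0, glutathione members lower ranged from 0 to 1, and further pathway genes from 4 to 8 higher and from 9 to 13 lower. Of 365 single member values under alternatives, 336 stayed on the same side of the threshold. Some of these 336, called in neither fit, changed direction, as GSTM4 did with the mean of its records (0.09 in place of -0.59). Without background or detection columns, dim genes such as GPX2 cannot be called absent, and 3 arrays a group limit the precision.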

Other observations

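Transcript records of some further pathway genes gave different sizes. The brighter record of RPE changed by -1.23 and its second by -0.52 (limma adjusted p = 0.0547 in the fit of all records). Both records of PRDX5 rose alike in that fit, by 0.73 and 0.76. The records of GPX4, the phospholipid peroxidase that guards against ferroptosis, changed by 0.17 and 0.40 and neither passed. Those of ABCC5, an exporter, changed by -1.02 ± 0.57 and 0.28 ± 0.27. Neither ABCC5 record passed in the fit of all records (limma adjusted p = 0.240 and 0.481).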
